A study of Mus musculus with 6 samples.

Results

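The genes described here carry out mitochondrial fatty acid oxidation and ketogenesis in liver, together with genes that activate fatty acids, release them from coenzyme A or control the pathway. They were chosen as a list of 35 gene symbols, with earlier results of these data known. Every probe set whose platform annotation gives 1 of those symbols alone was taken. This found 61 probe sets for 34 of the 35 genes, among 45037 probe sets on the array. Acsl1 is not analysed here. A gene measured by several probe sets was read from its brightest probe set, by the mean of the 6 arrays, and the whole table then held 18193 genes.

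Liver RNA came from 6 female mice aged 8 weeks, 3 of the inbred strain SM/J (SM) and 3 of the inbred strain NZB/BinJ (NZB), on 1 expression array per mouse. Neither strain carried a transgene or received a treatment according to the labels. All mice were kept on chow after weaning at 3 weeks, had no food for 4 hours before dissection, and were perfused with 50 mL of saline. Mice of 1 strain are biological replicates per the labels, and the number of arrays limits the precision of every value.

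Long-chain fatty acids enter liver mitochondria as carnitine esters and are then shortened in rounds of dehydrogenation, hydration, a further dehydrogenation and thiolysis. The electrons of the first step pass through the electron transfer flavoprotein to the respiratory chain, and much of the acetyl-CoA made in a fasting liver is turned into ketone bodies. The nuclear receptor PPAR alpha, which binds DNA together with RXR, and the coactivator PGC-1 alpha are known to drive these genes in fasting, while malonyl-CoA blocks entry at the carnitine step.

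Values are deposited log2 expression, and the arrays had medians between 6.60 and 6.66. The RNA was that of liver: albumin, Alb, read 14.87 in SM and 14.89 in NZB, and 0 of 5 hepatocyte markers differed past the threshold. The array of SM replicate 2 stood apart in Xist, the RNA of the inactive X chromosome, at 7.32 against 12.61 to 12.91 on the other 5 arrays. Y-linked genes, whose RNA females lack, served as a guide to background. The probe set for Sry read up to 8.04 and the other 5 Y-linked genes averaged 6.61 or less in either strain. On SM replicate 2 the highest Y-linked reading was 7.92, against 7.70 to 8.04 on the other 5 arrays. Eif2s3y read 3.96 there, against 3.84 to 4.01 on the others. The cause of the low Xist reading was not tested. Because whole liver was used, fewer hepatocytes and less RNA per hepatocyte cannot be told apart. Among 8 Kupffer cell markers, 5 were higher in NZB and 1 was lower, and log2 of their summed level ran from 12.58 to 12.72 in SM and from 12.98 to 13.21 in NZB. For 6 B and plasma cell markers, 4 of them higher in NZB, the sum ran from 9.48 to 9.61 in SM and from 12.65 to 13.67 in NZB, and Cd79a averaged 5.76 and 5.94. T and NK cell markers were higher in NZB in 3 of 5 cases (sums 9.34 to 9.46 in SM and 9.52 to 9.62 in NZB) and neutrophil markers in 3 of 4 (8.69 to 8.80 and 9.10 to 9.41). Stellate cell markers were lower in 1 of 6 cases, Rgs5, and their sums ran from 12.20 to 12.32 in SM and from 11.62 to 12.02 in NZB. Of 2 erythroid markers Alas2 was lower (sums 8.76 to 9.58 and 7.68 to 8.49). Of 5 sinusoidal endothelium markers Stab2 and Pecam1 were higher and Lyve1 and Clec4g lower (sums 11.66 to 11.82 and 11.75 to 11.92). Calls over cholangiocyte, adipocyte and skeletal muscle markers numbered 0. Many of these markers read below 8.04, the highest Sry reading, on every array, where a difference is hard to read. They were 4 of 6 B and plasma cell, 4 of 5 T and NK cell and 3 of 4 neutrophil markers. So were 3 of 6 stellate cell, 2 of 5 sinusoidal endothelium and 1 of 2 erythroid markers, but 0 of 8 Kupffer cell markers. The part of these cell types in the results was not tested.

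The question was how expression of this pathway differs between NZB and SM liver. Most genes whose expression differed were lower in NZB. Of the 34 measured genes 16 were lower, 3 were higher and 15 did not pass the test (limma, Benjamini-Hochberg adjusted p under 0.05 over all 18193 genes). Among all genes 12.6% were lower and 8.47% higher, 21.0% in either direction. The median difference, NZB minus SM, was -0.25 on the log2 scale over the 34 genes and 0.021 over all genes. The NZB arrays lay wholly below the SM arrays for 20 of the 34 genes and wholly above for 3, against 19.7% and 19.6% of all genes. The called differences reached 2-fold in 4 genes: the acyl-CoA synthetase gene Acsm3, the pantetheinase gene Vnn1, the thioesterase gene Acot1 and the coactivator gene Ppargc1a, all lower in NZB. Over all 18193 genes the called differences reached 2-fold in 280.

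Without SM replicate 2 the lower genes numbered 10 and the higher genes 2, while 8.23% of all genes were lower. The 7 genes that lost their call were Cpt1a, Acsm1, Acot1, Hadh, Echs1, Ppara and Vnn1. Without NZB replicate 2 the lower genes numbered 8, beside 9.23% of all genes. Of the 19 called genes, 10 kept their call under each of the 14 alternative settings tried: Cpt2, Acsm3, Acsm5, Acot2, Acadl, Acadm, Eci1, Etfa, Mlycd and Ppargc1a. All 19 kept their direction in those settings.

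**Figure D1:**
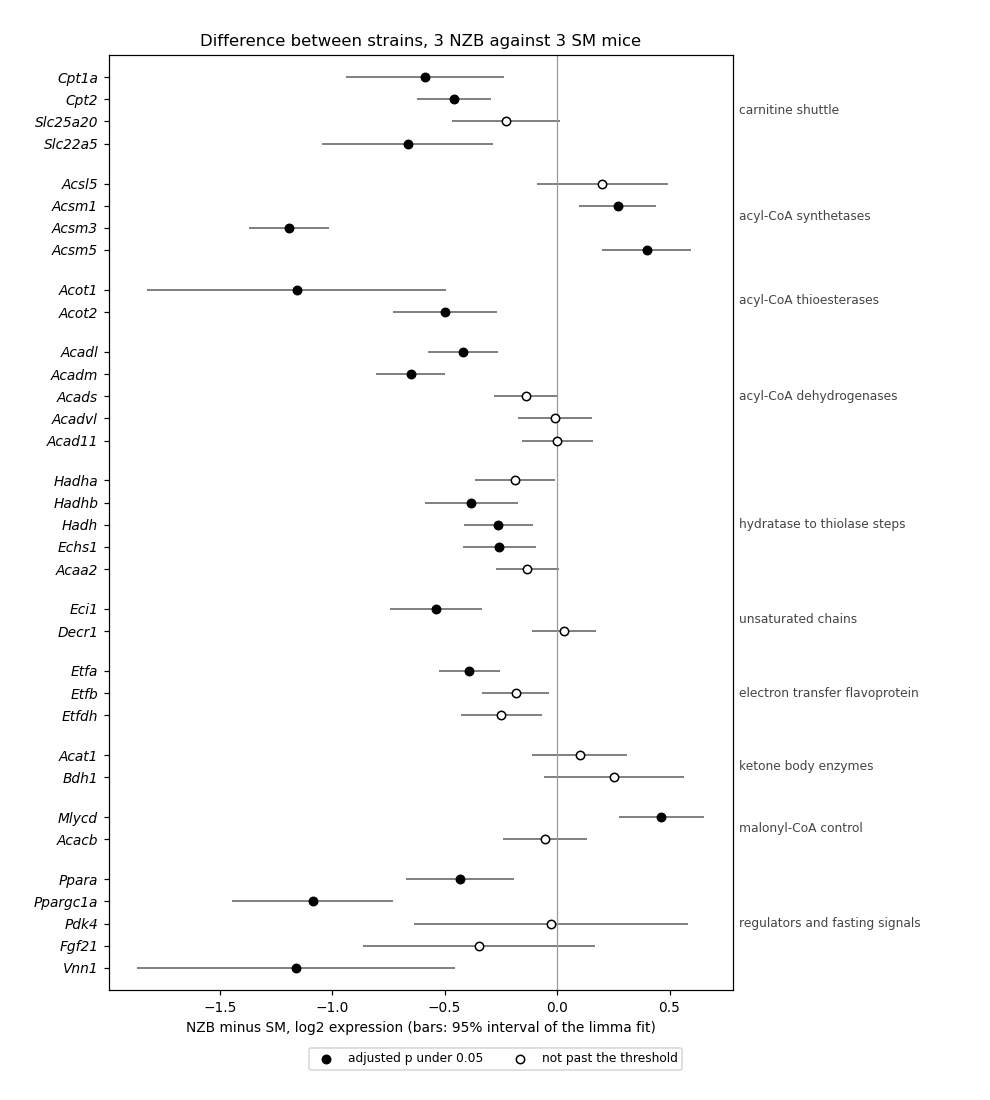
Difference in log2 expression, NZB minus SM, for 34 genes (3 mice per strain, rows grouped by role), with points for the difference and bars for the 95% interval of the limma fit. Filled points mark the 19 genes past the threshold, 16 of them left of 0 and 3 right of 0.

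The carnitine shuttle carries acyl chains into the mitochondrion. Of 4 genes grouped under it here, which include the plasma membrane carnitine transporter, 3 were lower in NZB. Cpt1a, the outer membrane palmitoyltransferase and main control point of entry, read 11.91, 12.33 and 12.68 in SM replicates 1, 2 and 3 and 11.74, 11.66 and 11.76 in NZB. All NZB values lay below all SM values, with SM replicate 1 closest to them. The difference was -0.59 (SE 0.157, limma adjusted p = 0.0267). For Cpt2, the inner membrane partner, SM read 11.66, 11.70 and 11.88 and NZB 11.23, 11.30 and 11.33. This was a 1.37-fold lower level in NZB (-0.46, SE 0.0731, adjusted p = 0.00246) with a clear gap between the strains. The plasma membrane carnitine transporter Slc22a5 gave 10.17, 10.38 and 10.97 in SM and 9.79, 9.87 and 9.87 in NZB, a difference of -0.66 (SE 0.169, adjusted p = 0.0218). Its SM mice were widely spread and its NZB mice nearly equal. The carnitine-acylcarnitine exchanger Slc25a20 read 11.25, 11.35 and 11.60 in SM and 11.24, 10.99 and 11.29 in NZB, which overlapped (-0.23, adjusted p = 0.164).

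The 3 probe sets of Cpt1a differed by -0.59, -0.60 and -0.67, and each was past the threshold among all probe sets. The call of Cpt1a ended without SM replicate 2 or any 1 of the NZB replicates (adjusted p = 0.0647 to 0.0853), and also under trended, robust variances (0.0687). That of Slc22a5 ended without any 1 of the NZB replicates (0.0551 to 0.0666) and in 3 other settings (0.0587 to 0.122), and its difference was -0.43 without SM replicate 3 and -0.41 when its probe sets were averaged. Its dimmer probe set differed by -0.15.

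Of the acyl-CoA synthetases, which join a fatty acid to coenzyme A before it can be oxidised, the medium-chain Acsm genes went in both directions. Acsm3 was lower in NZB in all mice. It read 10.61, 10.40 and 10.48 in SM and 9.31, 9.41 and 9.20 in NZB, a 2.28-fold lower level (-1.19, SE 0.0792, adjusted p = 1.91e-05). The SD within a strain was far smaller, 0.107 in SM and 0.103 in NZB. Acsm5 was instead higher in NZB, at 10.53, 10.76 and 10.45 against 10.19, 10.26 and 10.09 (0.40, SE 0.0881, adjusted p = 0.0119). Acsm1 was higher by 0.27 (SE 0.0755, adjusted p = 0.0327), with 12.39, 12.27 and 12.34 in NZB and 12.17, 12.09 and 11.93 in SM. Both gains were small beside the fall of Acsm3, and neither gene's arrays overlapped between strains. The long-chain synthetase Acsl5 ran from 11.68 to 12.28 in SM and from 12.13 to 12.23 in NZB and did not pass (0.20, adjusted p = 0.306), though it did without SM replicate 1 (0.0298). The call of Acsm1 ended when SM replicate 2, SM replicate 3, NZB replicate 1 or NZB replicate 3 was dropped (0.0759 to 0.0983) and with array medians aligned (0.0740).

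Acot1 and Acot2 encode the cytosolic and mitochondrial thioesterases that release fatty acids from long-chain acyl-CoA, and both were lower in NZB. Acot1 read 9.64, 10.46 and 10.92 in SM and 9.32, 8.72 and 9.50 in NZB. Each strain was spread over a wide range and the nearest mice of the strains, SM replicate 1 and NZB replicate 3, differed little. The difference was -1.16 (SE 0.295, adjusted p = 0.0222). Acot2 read 9.29, 9.29 and 9.68 in SM and 8.94, 8.95 and 8.87 in NZB (-0.50, SE 0.103, adjusted p = 0.00856), and its dimmer probe set differed by -0.58. These genes are close copies, so a probe set can read more than its own gene. The call of Acot1 ended without SM replicate 2 or NZB replicate 2 (0.0802 and 0.0758) and with trended and robust variances (0.129).

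In gene order, Acot2 and Acot1 stand first in a row on mouse chromosome 12 that goes on with Acot4, Acot3, Acot5 and Acot6. The first 4 were lower in NZB, Acot4 by 0.70 (-0.70, SE 0.0866, adjusted p = 0.000648) and Acot3 by 1.55 (-1.55, SE 0.153, adjusted p = 0.000183), both peroxisomal enzymes. The only probe set of Acot3 is marked for cross-hybridization, so Acot3 had no value without marked probe sets. Acot5 differed by 0.039 and Acot6 by 0.016, and their levels were low in both strains, at 4.78 and 6.89 in SM. The Acsm genes form a row on chromosome 7 in the order Acsm5, Acsm2, Acsm1, Acsm4 and, past Thumpd1 and Ppp1ccb, Acsm3. There Acsm5, Acsm2 and Acsm1 were higher in NZB (Acsm2 by 0.37, SE 0.0720, adjusted p = 0.00691), Thumpd1 did not pass (-0.14, adjusted p = 0.299) and Acsm3 was lower. Acsm4 and Ppp1ccb have no value here.

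**Figure D2:**
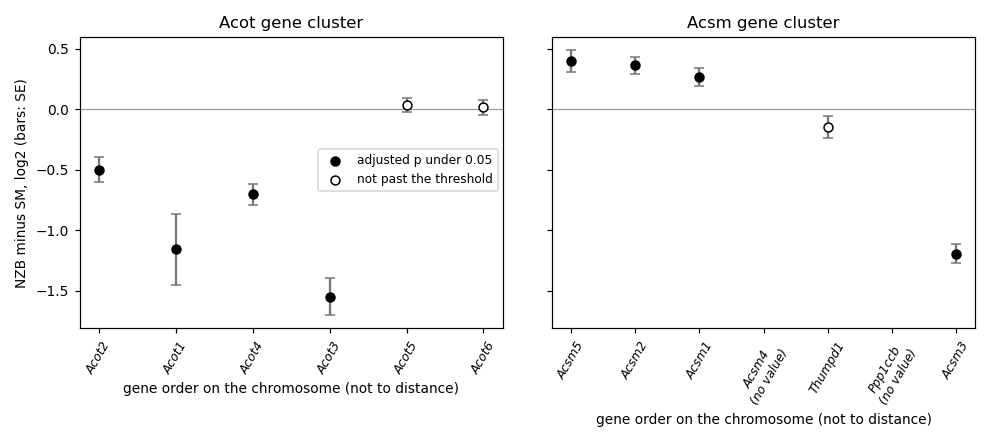
Difference in log2 expression, NZB minus SM, with its SE for the genes of the Acot row and the Acsm row in chromosome order, with filled points past the threshold and distances not drawn. The first 4 Acot genes lie between -0.50 and -1.55, while Acsm5, Acsm2 and Acsm1 lie between 0.27 and 0.40 and Acsm3 at -1.19.

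The acyl-CoA dehydrogenases begin each round of oxidation and differ in the chain length they prefer. The medium-chain enzyme gene Acadm read 13.22, 13.33 and 13.33 in SM and 12.69, 12.55 and 12.68 in NZB, a 1.57-fold lower level (-0.65, SE 0.0673, adjusted p = 0.000238). The long-chain gene Acadl gave 12.10, 12.10 and 12.25 in SM and 11.76, 11.65 and 11.78 in NZB (-0.42, SE 0.0689, adjusted p = 0.00292). Both sets of arrays were well apart. Acadl also has a dim probe set near 4.6 that did not differ, and its mean over both probe sets differed by -0.24. The short-chain gene Acads differed by -0.14 (adjusted p = 0.151, 95% interval -0.28 to 0.0022). For the very-long-chain gene Acadvl the difference was -0.010 (-0.18 to 0.16), and for Acad11, which acts on very long chains, 0.00099 (-0.16 to 0.16). Both intervals exclude differences as large as those measured for Acadm and Acadl.

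Among the steps from hydration to thiolysis 3 of 5 genes were lower in NZB. Hadhb, which encodes the thiolase subunit of the trifunctional protein, read 11.98, 12.04 and 12.29 in SM and 11.74, 11.62 and 11.82 in NZB (-0.38, SE 0.0916, adjusted p = 0.0174). Its partner subunit gene Hadha ran from 11.82 to 12.04 and from 11.64 to 11.83, which overlapped (-0.19, adjusted p = 0.128). Hadh, the short-chain hydroxyacyl-CoA dehydrogenase, read 13.83, 13.72 and 13.69 in SM and 13.43, 13.47 and 13.56 in NZB (-0.26, SE 0.0675, adjusted p = 0.0237). Echs1, the short-chain hydratase, was at 12.51, 12.43 and 12.27 against 12.15, 12.14 and 12.15 (-0.26, SE 0.0722, adjusted p = 0.0332). The thiolase gene Acaa2 did not pass in its brightest probe set (-0.13, adjusted p = 0.165), and its other probe sets differed by -0.22 (probe set adjusted p = 0.0371) and -0.0032. Hadhb lost its call when NZB replicate 2 was dropped (0.0645), and Hadh when replicate 1 or 2 of either strain was (0.0624 to 0.0773). Echs1 lost it when any array except SM replicate 3 was dropped (0.0803 to 0.106). With the replicate number as a block the adjusted p was 0.0518 for Hadh and 0.0502 for Echs1. Without probe sets marked for cross-hybridization Hadh differed by -0.40.

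The enzymes for double bonds differed from each other. Eci1, the enoyl-CoA isomerase, read 11.55, 11.65 and 11.89 in SM and 11.14, 11.10 and 11.24 in NZB, 1.45-fold lower (-0.54, SE 0.0904, adjusted p = 0.00324). Decr1, the dienoyl-CoA reductase, ran from 11.56 to 11.64 and from 11.60 to 11.72 and did not pass (0.031, 95% interval -0.11 to 0.17). The 2 intervals do not overlap, that of Eci1 being -0.74 to -0.33, but the difference between the genes was not itself tested.

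Of the electron transfer flavoprotein genes 1 of 3 passed. Etfa, the alpha subunit, read 12.92, 12.90 and 12.81 in SM and 12.49, 12.46 and 12.51 in NZB (-0.39, SE 0.0603, adjusted p = 0.00208). The beta subunit gene Etfb differed by -0.18 (SE 0.0661, adjusted p = 0.0795) and Etfdh, the dehydrogenase that hands the electrons to ubiquinone, by -0.25 (SE 0.0797, adjusted p = 0.0551). The NZB arrays lay below all SM arrays for all 3. Etfdh passed in 4 of the 14 alternative settings (0.0325 to 0.0440), among them leaving out SM replicate 1.

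Neither measured gene of ketone body synthesis passed. Acat1, which makes acetoacetyl-CoA, read 12.48, 12.59 and 12.78 in SM and 12.78, 12.56 and 12.80 in NZB (0.10, adjusted p = 0.488). Bdh1, which reduces acetoacetate to hydroxybutyrate, read 11.70, 11.92 and 12.33 in SM and 12.17, 12.19 and 12.35 in NZB (0.25, adjusted p = 0.233). SM replicate 3 fell among the NZB arrays for both. Without it Bdh1 was higher in NZB (0.43, adjusted p = 0.0112). Its dimmer probe set went the other way (-0.34, probe set adjusted p = 0.117), so its direction depends on the probe set read.

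Malonyl-CoA, the inhibitor of carnitine entry, is removed by Mlycd, which was higher in NZB. Mlycd read 9.97, 9.99 and 10.26 in SM and 10.52, 10.51 and 10.59 in NZB, a 1.38-fold higher level (0.46, SE 0.0847, adjusted p = 0.00473) with no overlap. Acacb, the carboxylase that makes malonyl-CoA at mitochondria, ran from 9.06 to 9.33 and from 9.04 to 9.22 (-0.053, adjusted p = 0.696, 95% interval -0.24 to 0.13).

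**Figure D3:**
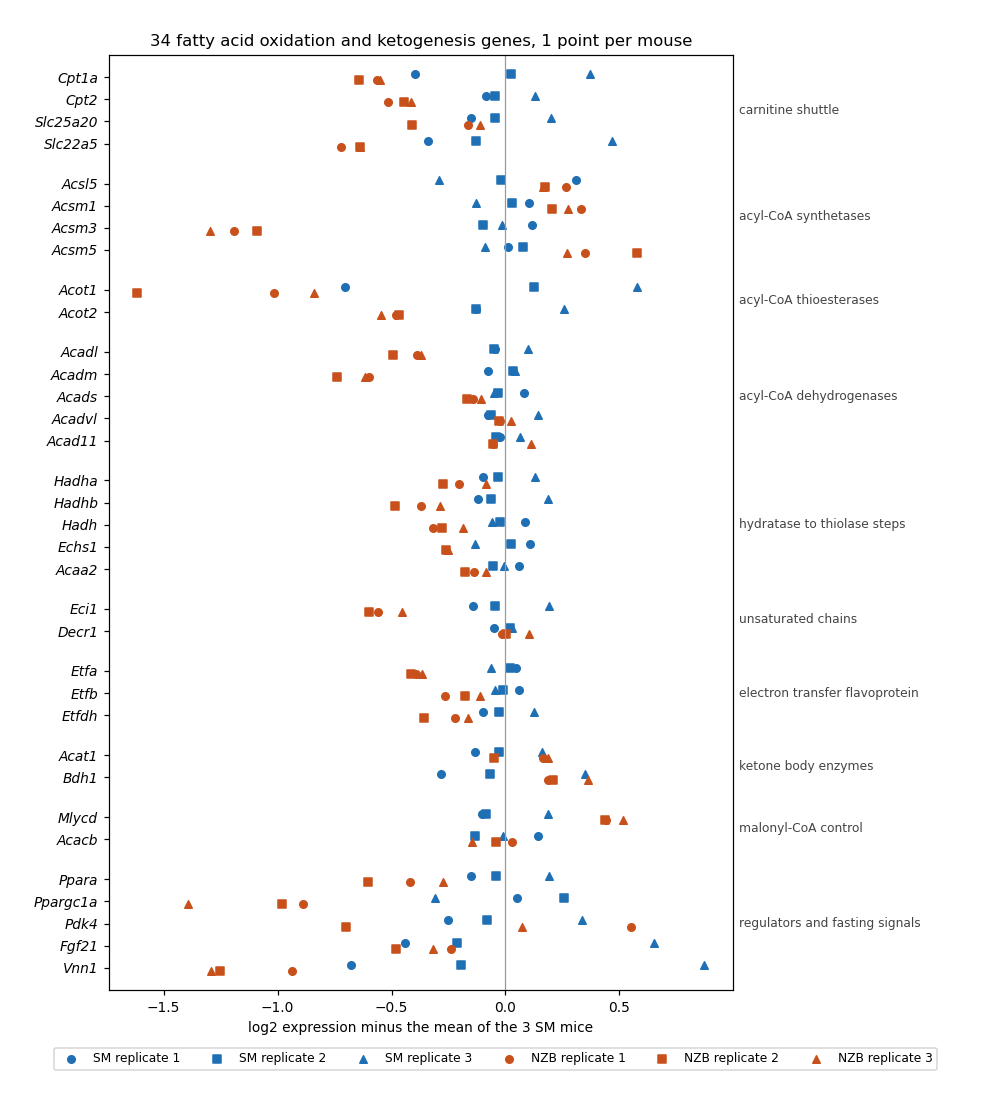
Log2 expression of each mouse minus the mean of the 3 SM mice, for 34 genes grouped by role, with 1 point per mouse (circle, square and triangle for replicates 1, 2 and 3). NZB points lie left of all SM points in 20 rows, and SM replicate 3 is the highest SM mouse in 22 rows.

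The regulators Ppargc1a and Ppara and the PPAR alpha target Vnn1 were lower in NZB, and the fasting signals Pdk4 and Fgf21 did not pass. Ppargc1a, the gene of PGC-1 alpha, read 8.81, 9.02 and 8.45 in SM and 7.87, 7.78 and 7.37 in NZB, 2.12-fold lower (-1.09, SE 0.159, adjusted p = 0.00155). Its 5 probe sets were all lower and past the threshold, by 0.69 to 1.09. The NZB readings lie below the highest Sry reading, so the fold may be understated. Ppara read 11.06, 11.17 and 11.40 in SM and 10.79, 10.60 and 10.93 in NZB (-0.43, SE 0.106, adjusted p = 0.0191). Its other probe sets differed by -0.30 and -0.76 and did not pass, and the call ended without SM replicate 2 or NZB replicate 2 (0.0537 and 0.0658) and with the mean of its probe sets (0.108).

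Vnn1, which makes cysteamine from pantetheine, read 9.68, 10.16 and 11.22 in SM and 9.42, 9.10 and 9.06 in NZB (-1.16, SE 0.314, adjusted p = 0.0282). SM replicate 3 was more than 1 log2 unit above its strain mates, and the difference was -0.72 without it. The other probe set of Vnn1 differed by -1.29. Its call ended without SM replicate 2 or NZB replicate 2 or 3 (0.0613 to 0.0981), with trended and robust variances and after quantile normalization (0.0524 to 0.147). Pdk4, the kinase that turns off pyruvate dehydrogenase in fasting, read 6.75, 6.91 and 7.33 in SM and 7.55, 6.30 and 7.07 in NZB (-0.025, adjusted p = 0.963). The hormone gene Fgf21 read 6.68, 6.91 and 7.77 in SM and 6.88, 6.64 and 6.80 in NZB (-0.35, adjusted p = 0.322). Both lie below the highest Sry reading, 8.04, where a difference may not be detectable. Their strain means lie above those of the other Y-linked genes, at most 6.61. Mice of a strain also differed widely, over a range of 1.25 for Pdk4 in NZB and 1.09 for Fgf21 in SM.

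PPAR alpha and RXR are known to bind a direct repeat of AGGTCA with a single base between the copies. The 250 bases before the start of each gene were searched on both strands in RefSeq promoters of GRCm38.p6, which held 31 of the 35 genes. The full repeat, with any base between the copies, was in 0 of the 31 genes and in 0.0335% of all 32851 windows. So rare a match makes 0 the likely count for any 31 genes, and nothing is drawn from it. A single AGGTCA, part of the same motif, was in 5 of the 31 genes, 16.1%, and in 14.0% of all windows. The units differ: the first share counts genes, which had 33 windows among the 31, and the second counts single windows. These 5 are printed because they set genes of each outcome side by side, with the match in capitals as AGGTCA or its reverse complement TGACCT. Acadm, Cpt1a and Echs1 were lower in NZB, Acsm1 was higher and Acadvl did not pass. A match is a description of letters, and sequence differences between the strains were not read.
Acadm (chr3:153944644-153944893, minus strand): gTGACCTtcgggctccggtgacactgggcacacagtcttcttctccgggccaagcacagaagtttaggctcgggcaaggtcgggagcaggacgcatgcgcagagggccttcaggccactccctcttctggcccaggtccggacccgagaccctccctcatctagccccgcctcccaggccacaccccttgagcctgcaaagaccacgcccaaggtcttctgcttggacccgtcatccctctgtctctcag
Cpt1a (chr19:3323051-3323300, plus strand): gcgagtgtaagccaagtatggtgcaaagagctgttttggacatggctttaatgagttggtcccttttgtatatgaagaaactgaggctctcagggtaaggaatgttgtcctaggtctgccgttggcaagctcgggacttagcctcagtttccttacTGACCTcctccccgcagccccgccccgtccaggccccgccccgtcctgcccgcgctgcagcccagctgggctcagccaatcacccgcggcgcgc
Echs1 (chr7:140116422-140116671, minus strand): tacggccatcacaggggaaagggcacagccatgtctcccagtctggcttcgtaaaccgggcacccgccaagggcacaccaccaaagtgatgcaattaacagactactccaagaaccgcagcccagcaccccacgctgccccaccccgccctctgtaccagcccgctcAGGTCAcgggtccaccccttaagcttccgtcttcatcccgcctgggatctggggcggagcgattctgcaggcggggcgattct
Acsm1 (chr7:119617562-119617811, plus strand): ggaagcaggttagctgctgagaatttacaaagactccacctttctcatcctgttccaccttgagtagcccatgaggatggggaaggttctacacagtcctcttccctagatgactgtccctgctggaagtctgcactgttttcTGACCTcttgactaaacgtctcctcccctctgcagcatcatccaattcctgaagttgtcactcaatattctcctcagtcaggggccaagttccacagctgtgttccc
Acadvl (chr11:70015429-70015678, minus strand): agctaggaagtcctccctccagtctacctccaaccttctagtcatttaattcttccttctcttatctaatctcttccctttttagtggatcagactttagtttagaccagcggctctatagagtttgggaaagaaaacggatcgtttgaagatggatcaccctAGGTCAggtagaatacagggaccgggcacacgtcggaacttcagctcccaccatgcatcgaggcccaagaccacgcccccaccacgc

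Over all 61 probe sets of the 34 genes, 28 were lower in NZB, 3 were higher and 30 did not pass (limma, adjusted over 45037 probe sets, of which 8.69% were lower and 6.09% higher). The lower probe sets numbered 14 without SM replicate 2, 14 without NZB replicate 2 and 15 without NZB replicate 3, where 5.51%, 5.88% and 5.02% of all probe sets were lower. No gene had probe sets called in opposite directions.

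The mice of a strain were not alike in these genes, and the SM mice varied more. The SD within SM was larger than within NZB for 28 of 34 genes, 82.4%, against 54.7% of all genes. The median SD was 0.131 in SM and 0.0768 in NZB, while over all genes it was 0.0831 and 0.0750. In SM the spread was widest for Vnn1 (SD 0.792), Acot1 (0.649), Fgf21 (0.575), Slc22a5 (0.418) and Cpt1a (0.384). The same genes except Acot1 had an SD of 0.195 or less in NZB. Pdk4 was the reverse, with 0.301 in SM and 0.632 in NZB.

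SM replicate 3 had the highest SM value in 22 of the 34 genes, 64.7%, against 36.2% of all genes, and SM replicate 1 the lowest in 20, 58.8%, against 30.3%. This held for all 4 genes grouped under the carnitine shuttle, both thioesterases and both ketone body genes. It did not hold for the acyl-CoA synthetases, where SM replicate 3 was the lowest of the SM mice for Acsl5, Acsm1 and Acsm5. In NZB, replicate 2 was the lowest in 21 of the 34 genes, 61.8%, against 33.8% of all genes. Over the 93 measured genes of the other pathway list described below, SM replicate 3 was the highest SM mouse in 39, 41.9%. Its lists differed. SM replicate 3 was highest in 12 of 16 PPAR alpha targets outside oxidation. It was highest in 3 of 17 other mitochondrial acyl-CoA enzymes and lowest in 11. Among 14 other synthetases and thioesterases it was highest in 2 and lowest in 8. Without SM replicate 3, 16 of the 34 genes were still lower in NZB, beside 13.2% of all genes, and the median difference of the 34 was -0.20.

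**Figure D4:**
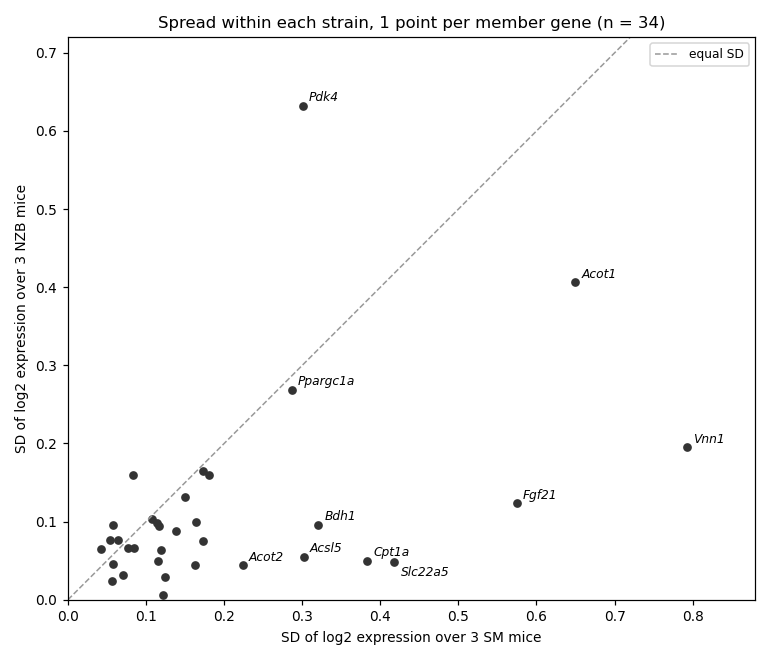
SD of log2 expression over the 3 NZB mice against the SD over the 3 SM mice, with 1 point per gene and the line of equal SD, and names for genes with an SD above 0.2 in either strain. For 28 of 34 genes the point lies below the line, and Pdk4 lies farthest above it.

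Other genes of the pathway, from a list of 102 drawn up beside the 35, were measured in 93 cases. In NZB 34 were lower, 9 were higher and 50 did not pass, with a median difference of -0.15. The lower genes were 36.6% of the list against 12.6% of all genes, and the higher genes 9.68% against 8.47%. The list was drawn up with earlier results of these data known, so these shares describe it and test nothing. The higher genes numbered 5 without SM replicate 2, NZB replicate 1 or NZB replicate 3. Of the 43 called genes, 21 kept their call in each alternative setting that gave them a value and 22 lost it in at least 1, and 0 changed sign.

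The list of partners and regulators of PPAR alpha also held the other PPAR genes Ppard and Pparg and the FGF21 receptor genes Klb and Fgfr1. Of its 18 measured genes 9 were lower and 1 was higher. The lower genes were Rxra, Hnf4a, Med1, Ncoa1, Esrra, Klb, Lpin1, Lpin2 and Ppargc1b, and the higher gene was Pparg. Of these Esrra, Lpin1, Lpin2 and Ppargc1b kept their call throughout. With the mean of probe sets the calls of Rxra (-0.067, adjusted p = 0.558), Med1 (-0.096, 0.285), Hnf4a (-0.25, 0.136) and Klb (-0.14, 0.132) ended. Single arrays left out ended that of Ncoa1 (SM replicates 1 and 2, NZB replicates 1 and 3, 0.0874 to 0.107) and of Pparg (SM replicates 1 and 2, NZB replicates 1 and 2, 0.0560 to 0.118). They also ended those of Med1 (SM replicate 2 and NZB replicate 3, 0.0558 to 0.0568) and Klb (NZB replicate 3, 0.0557).

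PPAR alpha targets outside oxidation were lower in 8 of 16 cases and higher in 2. The fatty acid transporter gene Cd36 read 11.44, 11.45 and 11.26 in SM and 9.70, 9.71 and 9.31 in NZB (-1.81, SE 0.110, adjusted p = 1.15e-05). G0s2, an inhibitor of the lipase ATGL, was at 9.80, 10.11 and 11.56 in SM and 9.06, 8.22 and 8.92 in NZB (-1.76, SE 0.398, adjusted p = 0.0134), with SM replicate 3 far above its strain mates. The rest of the lower targets were Aldh3a2, Angptl4, Fitm2, Mgll, Plin5 and Pnpla2, and the higher were Fabp1 and Fitm1. Fitm1, which helps form lipid droplets, was 1.66-fold higher (0.73, SE 0.101, adjusted p = 0.00119). Under trended, robust variances the calls of G0s2 (0.112) and Plin5 (0.0729) ended. Angptl4 lost its call in 8 of the 14 settings, among them SM replicates 2 and 3 and NZB replicates 2 and 3 left out (0.0867 to 0.112), and its difference of -0.81 was -0.092 without probe sets marked for cross-hybridization. Fabp1 lost its call in 9, among them each array but NZB replicate 2 left out (0.0590 to 0.102). With the mean of probe sets Mgll went from -0.78 to -0.49 and Pnpla2 from -0.49 to -0.26, both still past the threshold.

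Of the other pyruvate dehydrogenase kinases, Pdk1 read 10.19, 10.10 and 9.87 in SM and 8.31, 8.44 and 8.24 in NZB, 3.30-fold lower (-1.72, SE 0.0911, adjusted p = 4.75e-06), Pdk2 was also lower, and Pdk3 did not pass. Peroxisomal oxidation genes were lower in 7 of 15 cases (Acot3, Acot4, Amacr, Acox2, Abcd2, Ehhadh and Hsd17b4) and higher in 1, Acox3. The first 4 kept their call throughout, while single arrays left out ended those of Abcd2 (SM replicate 2 and NZB replicate 3, 0.0540 to 0.0566), Acox3 (each array but SM replicate 2, 0.0509 to 0.0888), Ehhadh (each but NZB replicate 3, 0.0506 to 0.111) and Hsd17b4 (each but SM replicate 1, 0.0762 to 0.0858).

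Other mitochondrial acyl-CoA enzymes were lower in 5 of 17 cases (Pcca, Hibch, Eci2, Mcat and Mmut) and higher in 2, Ech1 and Acad8. Pcca alone of these kept its call throughout, at -0.99 and, with the mean of probe sets, -0.43. When single arrays were dropped, calls ended for Ech1 (SM replicate 2 and NZB replicate 3, 0.0618 to 0.0695), Acad8 (each but SM replicate 1 and NZB replicate 2, 0.0799 to 0.107), Eci2 (each but SM replicate 1, 0.0524 to 0.129), Mcat (each but SM replicate 3 and NZB replicate 2, 0.0572 to 0.0790) and Mmut (each but SM replicate 3 and NZB replicate 1, 0.0918 to 0.122). Mcat differed by -0.24, or -0.15 after quantile normalization. The call of Hibch ended without marked probe sets (0.0685). Among other synthetases and thioesterases 3 of 14 were lower (Acot7, Acot12 and Slc27a2) and 1, Acsm2, was higher. Slc27a2 lost its call when any array but SM replicate 1 was dropped (0.0715 to 0.123), and Acot12 without SM replicate 2 (0.0536). The difference of Acot12 was -0.37 and, with the mean of probe sets, -0.97.

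Crot, which makes carnitine esters in peroxisomes, was higher in NZB. It read 11.67, 11.66 and 11.63 in SM and 12.90, 12.79 and 12.97 in NZB (1.24, SE 0.0653, adjusted p = 4.75e-06), and 0.70 with the mean of its probe sets. It was the only 1 of 6 measured carnitine handling genes to pass. Slc16a1, a carrier of lactate and ketone bodies, was higher by 0.81 (SE 0.124, adjusted p = 0.00193), or 0.47 when its probe sets were averaged, and it alone passed among 4 measured genes of ketone body metabolism.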

How the data were processed

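Liver RNA of 6 mice was measured on single-color arrays, 1 per mouse. The deposited values are log2 expression from RMA, which corrects background, normalizes arrays and summarizes probe sets, per the submitters' processing notes. Its version is not stated in the sources used here, and log2 was inferred because the highest value, 14.9, lies between the natural log limit (11.1) and the log2 limit (16) of a 16-bit scanner. RMA narrows differences near background, and strain variants under a probe can lower its signal.

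The platform annotation names 1 gene for 34945 of the 45037 probe sets, more than 1 for 932, and no gene for 9160. Symbols were updated by Entrez ID through the RefSeq table of GRCm38.p6 (34741 matched, 204 kept their own). That table gave names and gene order only. Columns left unmatched to a mouse numbered 0. The difference, NZB minus SM, was tested two-sided by lmFit and eBayes (limma version 3.58.1, R version 4.3.3), Benjamini-Hochberg over all genes or all probe sets, threshold 0.05. With 3 mice against 3 an exact permutation test cannot go below p = 0.1 and was not used. The fit was tested on simulated data. Members and gene lists were chosen with earlier results of these data known. Genes past the threshold, ketone body genes, regulators and Cpt1a are named with their values. From the other pathway list those past the threshold are named, the 4 largest in each direction with values.

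Alternatives were the replicate number as a block, each array left out, trended and robust variances, quantile normalization, aligned array medians, array weights, the mean of a gene's probe sets, no probe sets marked _s_at or _x_at, and no probe sets in the lowest 30 percent of mean level.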

Additional observations from a re-analysis of the deposited data

How the results depend on the processing

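Over 14 alternative settings, 476 values of the 34 genes were compared with those reported. Of these, 415 kept their direction and side of the threshold, 39 lost the call, 7 gained it and 15 changed sign, all 15 in genes that had not passed. With array medians aligned Acad11 was at -0.031 and Decr1 at -0.0012, with array weights Acadvl was at 0.020 and Pdk4 at 0.027, with the mean of probe sets Acad11 was at -0.042 and Bdh1 at -0.043, and after quantile normalization Acacb was at 0.037. With single arrays left out Acad11 ran from -0.054 to 0.034, Acadvl from -0.049 to 0.061, Decr1 from -0.0061 to 0.053, Acacb from -0.120 to 0.018 and Pdk4 from -0.31 to 0.31. The cause was not tested. Leaving out single arrays gave 8 to 16 lower and 2 to 4 higher genes of the 34, 14 to 29 lower and 2 to 4 higher probe sets, and 23 to 33 lower and 5 to 7 higher genes of the other pathway list. The last were 5 with array medians aligned. In the other 8 settings the lower genes of the 34 numbered 13 to 17. Among all genes the lower share was 8.23% to 13.2% with single arrays left out and 9.76% to 15.3% in the other 8 settings. Among all probe sets it was 5.02% to 8.67% with single arrays left out.

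Replicate numbers are shared between the strains, but arrays of the same number did not deviate together. The correlations of their deviations from the strain mean across genes were 0.040, -0.072 and 0.050 for numbers 1, 2 and 3, and not every array correlated best with its own number. With the replicate number as a block 14 of the 34 genes were lower and 3 higher, 23 and 2 of the probe sets, and 28 and 7 of the other pathway genes. In that setting 11.6% of all genes and 8.01% of all probe sets were lower.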

Other observations

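A probe set paired with both Acot1 and Acot2 was outside the rule that chose the genes. It read 10.18, 10.76 and 11.27 in SM and 9.76, 9.24 and 9.98 in NZB, a difference of -1.08 (SE 0.262, limma adjusted p = 0.0253 over all probe sets). Its order of mice within each strain was that of the Acot1 probe set, lowest in SM replicate 1 and NZB replicate 2 and highest in SM replicate 3 and NZB replicate 3.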
